A study of Mus musculus with 4 samples.

Results

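Metalloproteases of the ADAM, ADAMTS and MMP families and their inhibitors, the TIMPs, were examined in cultured mouse neural progenitor cells with and without a knockdown of Rybp. The genes were chosen by name, as protein-coding genes whose symbol begins with Adam or Mmp and a number, with Adamts, or with Timp and a number. Of 13881 genes in the table, 42 met this rule, namely 11 Adam, 16 Adamts, 3 Adamtsl, 8 Mmp and 4 Timp genes. The cells came from the forebrain of C57bl/6 embryos at day 14 and were expanded in medium with B27 supplement (2%), EGF (20 ng/ml) and FGF-2 (20 ng/ml). The group called shRybp here (2 libraries) was infected with a lentivirus that expresses a short hairpin RNA against Rybp, a subunit of Polycomb repressive complex 1, and the control group (2 libraries) is labelled only as control for the hairpin, for which no vector is named in the labels. Nothing in the labels says that the libraries of a group came from separate cultures or infections, so p-values cover no more than the spread from library to library, and that may be technical.

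These enzymes cut proteins at the cell surface and in the extracellular matrix with a zinc ion held in their active site. ADAMs are mostly membrane-anchored sheddases that release growth factors, adhesion molecules and receptor ectodomains, and ADAM10 makes the cut in ligand-bound Notch receptors that precedes their release into the cell. ADAMTS proteases are secreted and cleave matrix proteoglycans, procollagens and microfibril proteins, while ADAMTSL proteins share their ancillary domains without the protease. MMPs degrade matrix, some of them anchored in the membrane, and TIMPs block the active site of MMPs, with TIMP3 reaching many ADAMs and ADAMTSs as well.

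The zinc site separates the genes that encode an active-site signature from those that do not, and is shown first for that reason. The signature has a histidine and a glutamate codon next to each other, a histidine codon 3 codons further on from the glutamate and a last histidine codon at the 11th position. It was found in the annotated coding sequence (GENCODE release M21) of 32 of the 42 genes. Those were 8 of 11 Adam, 16 of 16 Adamts, 8 of 8 Mmp, 0 of 3 Adamtsl and 0 of 4 Timp genes. The Adam genes without it were Adam11, Adam22 and Adam23, which encode adhesion proteins of neural cells known to lack protease activity. The coding strand of the site is printed 5′ to 3′ for 8 genes on which the results turn, over 33 bases, with the codons of the 3 histidines and the glutamate in capitals.
Adam10: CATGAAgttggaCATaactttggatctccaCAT
Adam17: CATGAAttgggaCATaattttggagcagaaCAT
Adam19: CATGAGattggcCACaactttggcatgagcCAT
Adamts1: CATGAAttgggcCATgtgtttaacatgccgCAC
Adamts9: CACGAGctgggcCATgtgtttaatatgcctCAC
Adamts5: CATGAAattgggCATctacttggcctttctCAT
Adamts14: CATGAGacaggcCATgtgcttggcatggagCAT
Mmp15: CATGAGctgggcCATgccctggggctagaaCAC
In 6 Adamts genes (Adamts1, Adamts4, Adamts8, Adamts9, Adamts15 and Adamts20) the 8th codon of the site, which encodes glycine in the other 26 genes with the site, encodes another amino acid. Adamts1 and Adamts9 above show this form.

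Library totals were between 14355308 and 17598873 counts. The targeted gene Rybp was lower in the shRybp libraries, at 4.43 and 3.95 FPKM (fragments per kilobase of gene, scaled to the library's depth) in control and 3.01 and 2.66 FPKM in shRybp, which is 65.8% of control (log2 change -0.60 ± 0.12 SE, adjusted p = 0.0017 by edgeR). All 8 markers of neural progenitors were in the table, and so were all 8 of astrocytes and all 8 of the oligodendrocyte lineage. The progenitor markers, of which Prom1 averaged only 0.71 FPKM, summed to 3332 and 3068 FPKM in control and 2613 and 2522 FPKM in shRybp. Without Fabp7, the highest of them, the sum was 1123 and 1086 FPKM in control and 1145 and 1171 FPKM in shRybp. Microglia and endothelial markers were near 0. Of 8 microglia markers 6 had no row in the table (among them Aif1, Cx3cr1 and Tmem119), and the other 2 summed to at most 0.967 FPKM in any library. Of 8 endothelial markers 5 had no row (among them Pecam1 and Cdh5), and the other 3 summed to at most 1.28 FPKM.

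Of the 42 genes, 28 had a mean of at least 1 FPKM over the 4 libraries and were tested, and 13 of them rose and 5 fell in shRybp. Of all 12062 genes tested, 33.0% passed (16.3% rose and 16.7% fell), against 64.3% of the metalloprotease and inhibitor genes. Without shRybp replicate 1 the number that fell was 3. A gene is said to rise or fall only where the edgeR adjusted p is at most 0.05, with adjustment over all tested genes. The median log2 fold change of the 28 genes was 0.22, against 0.0033 for all genes tested. For 21 of the 28 genes the ranges of FPKM in control and shRybp were apart, 16 with shRybp higher and 5 with shRybp lower, where the background was 67.5% (38.5% higher and 29.0% lower). Most changes were modest, with 5 of the 18 at 1.5-fold or more and 3 at 2-fold or more. The rises were mostly among the secreted ADAMTS proteases, and the fall of greatest size was that of the inhibitor gene Timp3. Among the 21 tested genes with a zinc site 12 rose and 2 fell, and among the 7 tested genes without one 1 rose and 3 fell. This split overlaps with the families, since 8 of the 12 were Adamts genes and 2 of the 3 were Timp genes.

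**Figure D1:**
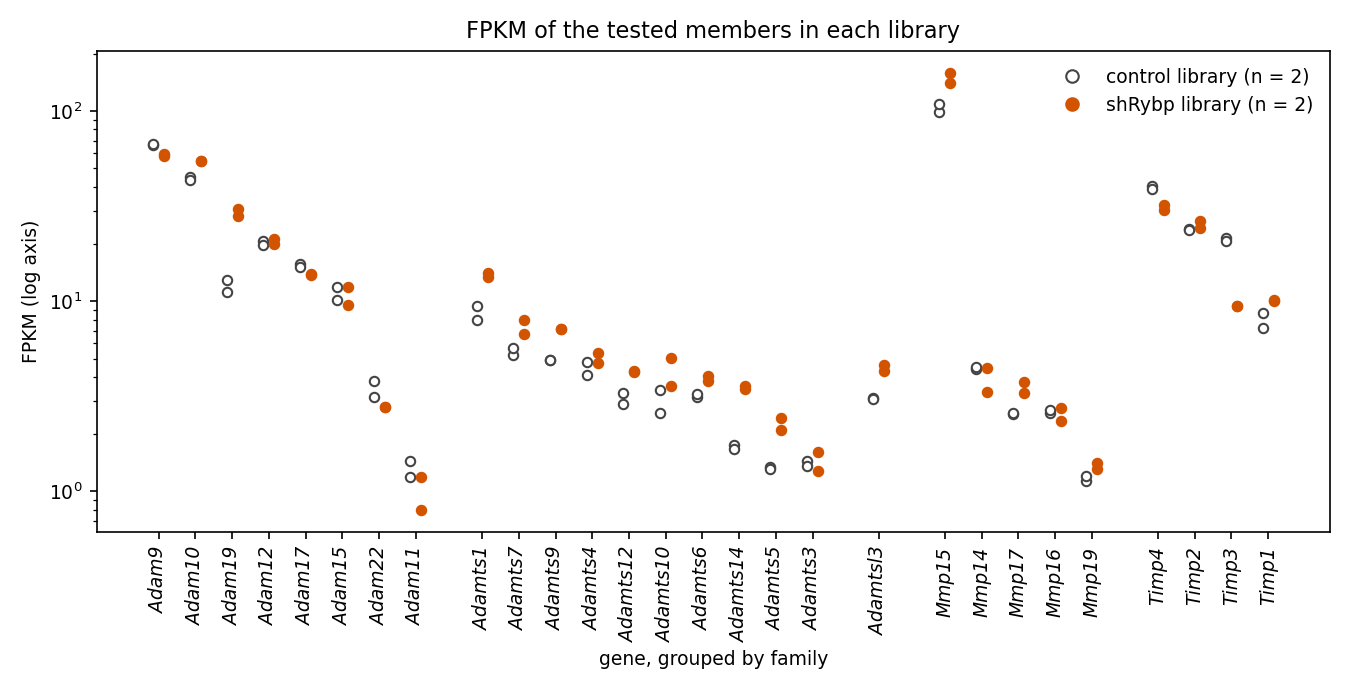
FPKM (log axis) of the 28 tested genes in each library, ordered by mean level within a family; open points are the 2 control libraries and filled points the 2 shRybp libraries. Mmp15, at 99.3 to 159 FPKM, stands highest, and the Adamts genes lie between 1.29 and 14.2 FPKM.

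**Figure D2:**
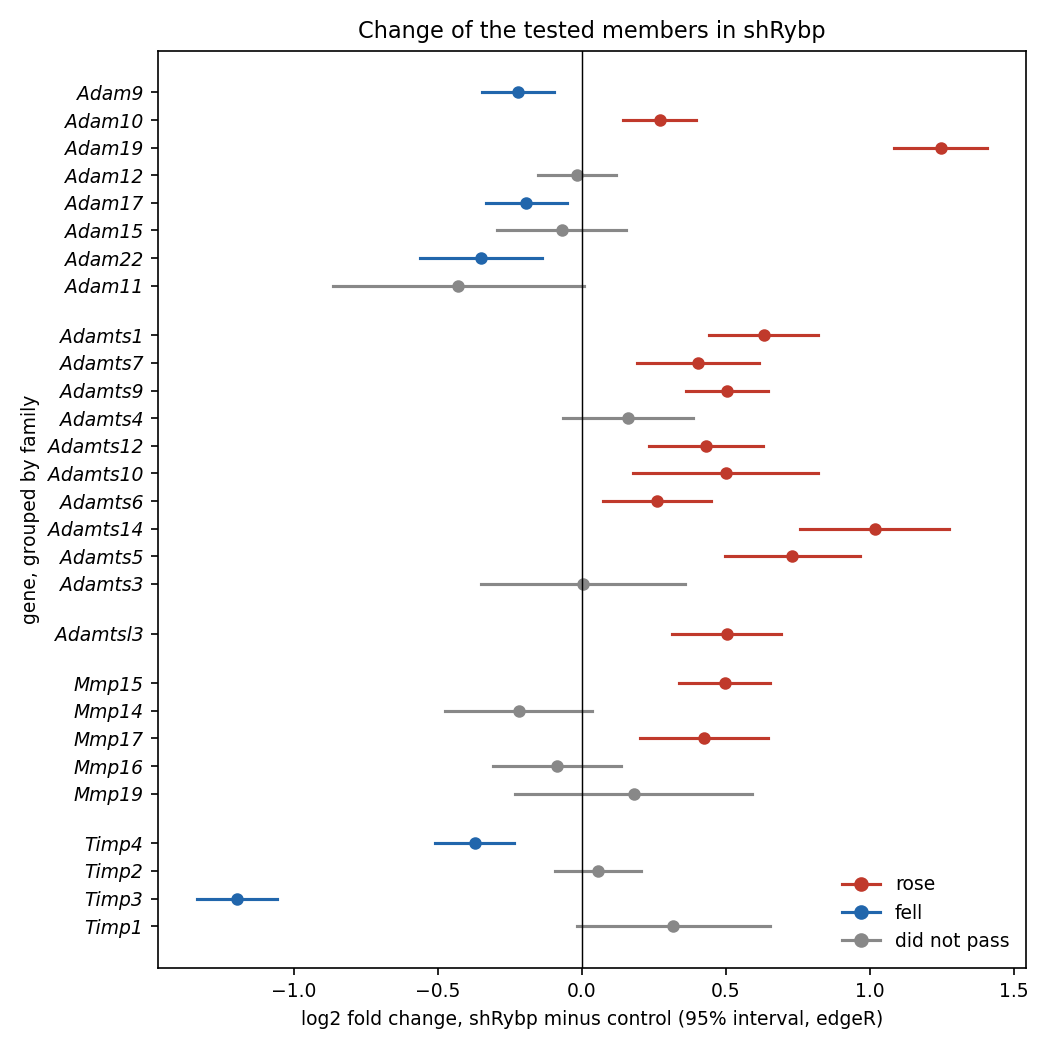
Log2 fold change of shRybp against control for the 28 tested genes with 95% intervals from the edgeR fit, coloured by whether a gene rose, fell or did not pass. Adam19 and Adamts14 lie furthest to the right and Timp3 furthest to the left.

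The Adam genes changed in both directions, with 2 rising, 3 falling and 3 not passing of 8 tested (median log2 fold change -0.13). Adam19, which encodes a sheddase that can process neuregulins (ENSMUSG00000011256, mm10 chromosome 11, 46055992 to 46147343, plus strand), was at 11.2 and 12.9 FPKM in control and at 28.1 and 30.4 FPKM in shRybp. The groups did not overlap, and each shRybp library was above 2 times either control library. The rise was 2.37-fold (log2 change 1.25 ± 0.07 SE, 95% interval 1.08 to 1.41, adjusted p = 2.5e-07 by edgeR) and passed in all 11 alternatives. Adam10, the Notch sheddase (ENSMUSG00000054693, mm10 chromosome 9, 70678997 to 70780229, plus strand), rose by much less, from 45.0 and 43.7 to 55.0 and 54.6 FPKM. Its groups were apart with little spread within each (log2 change 0.27 ± 0.06 SE, adjusted p = 0.0039 by edgeR).

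Adam9, a broadly expressed sheddase and the most abundant Adam gene here, fell from 66.0 and 67.5 to 58.1 and 59.1 FPKM (log2 change -0.22 ± 0.06 SE, adjusted p = 0.011 by edgeR). The groups were apart, but the call ended without shRybp replicate 1 (edgeR adjusted p = 0.054). Adam17, which sheds tumour necrosis factor and EGF receptor ligands, was at 15.8 and 15.2 FPKM in control and 13.9 and 13.8 FPKM in shRybp (log2 change -0.19 ± 0.07 SE, adjusted p = 0.037 by edgeR). This small fall ended in 7 of 11 alternatives, among them DESeq2 (adjusted p = 0.098) and the fits without control replicate 1 (edgeR adjusted p = 0.195), shRybp replicate 1 (0.106) and shRybp replicate 2 (0.156). Adam22, a receptor of LGI proteins at synapses with no zinc site, fell from 3.13 and 3.81 to 2.78 and 2.79 FPKM (log2 change -0.35 ± 0.10 SE, adjusted p = 0.016 by edgeR). Its size rests on control replicate 2, without which the log2 fold change was -0.22 (edgeR adjusted p = 0.152), and limma gave an adjusted p of 0.123.

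The other 3 tested Adam genes did not pass. Adam12, a sheddase also known from muscle and bone, had 20.8 and 19.8 FPKM in control and 21.1 and 20.1 FPKM in shRybp, so the groups overlapped, and the 95% interval of its log2 fold change was -0.15 to 0.12. The sign of that value changed with the scaling. Adam15 also overlapped between groups (95% interval -0.29 to 0.15). Adam11 ranged from 0.797 to 1.45 FPKM (log2 change -0.43, 95% interval -0.86 to 0.01, adjusted p = 0.12 by edgeR), and shRybp replicate 1 was the lowest library. Without shRybp replicate 2 its log2 fold change was -0.75 (edgeR adjusted p = 0.027), and without shRybp replicate 1 it was -0.18 (0.575).

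The Adamts proteases moved mostly upward. Of 10 tested, 8 rose and 0 fell, with a median log2 fold change of 0.46, against a background of 16.3% of genes that rose. At an unadjusted p under 0.05 the counts in the edgeR fit were also 8 and 0, and DESeq2 gave 7 and 0. Without shRybp replicate 2 the number that rose was 5. All 10 had a positive log2 fold change, the lowest being that of Adamts3 at 0.0027.

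Adamts14, one of the enzymes that trim procollagen (ENSMUSG00000059901, mm10 chromosome 10, 61197112 to 61273438, minus strand), changed most in the family, from 1.75 and 1.66 to 3.47 and 3.61 FPKM. The counts behind these levels were 160, 138, 259 and 308, and the groups were far apart relative to their spread (2.02-fold, log2 change 1.02 ± 0.12 SE, 95% interval 0.76 to 1.27, adjusted p = 5.0e-05 by edgeR). Adamts3, a procollagen enzyme of the same type, had 1.45 and 1.36 FPKM in control and 1.61 and 1.29 FPKM in shRybp. Its groups overlapped (95% interval -0.35 to 0.36, edgeR adjusted p = 0.99), and its sign turned without control replicate 2 or shRybp replicate 1.

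Adamts1, Adamts5, Adamts9 and Adamts4 are known to cleave lectican proteoglycans. Adamts1, which cleaves versican and aggrecan and was the most abundant Adamts gene (ENSMUSG00000022893, mm10 chromosome 16, 85793827 to 85803113, minus strand), went from 8.0 and 9.42 to 13.5 and 14.2 FPKM (log2 change 0.63 ± 0.09 SE, 95% interval 0.44 to 0.82, adjusted p = 0.00017 by edgeR). Both shRybp libraries lay above both controls. Adamts5, a major aggrecanase, lies 53059 bases from Adamts1 on the same strand (ENSMUSG00000022894, mm10 chromosome 16, 85856173 to 85901828) with 0 other genes of the table between them. It rose from 1.35 and 1.31 to 2.42 and 2.10 FPKM (log2 change 0.73 ± 0.11 SE, adjusted p = 0.00028 by edgeR), and with limma on log2(FPKM + 1) the change of this low gene was 0.49. Adamts9, a versican-cleaving enzyme, was at 4.91 and 4.89 FPKM in control and 7.11 and 7.13 FPKM in shRybp, the closest replicates in the family (log2 change 0.50 ± 0.07 SE, adjusted p = 0.00011 by edgeR). Adamts4, another aggrecanase, had 4.10 and 4.78 FPKM in control and 4.76 and 5.38 FPKM in shRybp. Its groups overlapped slightly, and the test was not passed (log2 change 0.16, 95% interval -0.07 to 0.38, adjusted p = 0.27 by edgeR).

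The remaining 4 Adamts genes also rose, and the calls of 3 depended on single libraries. Adamts12, which degrades cartilage oligomeric matrix protein, rose from 3.28 and 2.89 to 4.28 and 4.25 FPKM (log2 change 0.43 ± 0.09 SE, adjusted p = 0.0032 by edgeR) and passed in every alternative. Adamts7, its closest relative, rose from 5.22 and 5.67 to 6.74 and 7.99 FPKM (log2 change 0.40 ± 0.10 SE, adjusted p = 0.0075 by edgeR). Without shRybp replicate 2, its higher library, the adjusted p was 0.069. Adamts10 and Adamts6 act on fibrillin microfibrils. Adamts10 had 2.59 and 3.40 FPKM in control and 3.60 and 5.03 FPKM in shRybp, a wide spread in each group, and its log2 fold change of 0.50 (± 0.15 SE, adjusted p = 0.021 by edgeR) became 0.24 without shRybp replicate 2 (adjusted p = 0.24) and 0.32 without control replicate 1 (adjusted p = 0.072). In limma its adjusted p was 0.097. Adamts6 rose from 3.16 and 3.24 to 3.8 and 4.05 FPKM (log2 change 0.26 ± 0.09 SE, adjusted p = 0.036 by edgeR). It lost the call without any 1 of the 4 libraries, with edgeR adjusted p between 0.065 and 0.21, and in DESeq2 (0.187) and limma (0.074).

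Of the Adamtsl genes, which encode matrix proteins without a protease domain, only Adamtsl3 was high enough to test. It rose from 3.11 and 3.05 to 4.32 and 4.62 FPKM (log2 change 0.50 ± 0.09 SE, 95% interval 0.31 to 0.69, adjusted p = 0.00083 by edgeR), with the groups apart and the call kept in all 11 alternatives.

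Of 5 matrix metalloproteases tested, 2 rose, and 0 fell in the edgeR fit at the adjusted threshold or at an unadjusted p under 0.05, or in DESeq2. The background was 16.3% of all tested genes that rose, and nothing is read from a count over 5 genes. Mmp15, a membrane-type protease (ENSMUSG00000031790, mm10 chromosome 8, 95352268 to 95375080, plus strand), was by level the leading gene of all 42, at 99.3 and 108 FPKM in control and 141 and 159 FPKM in shRybp. With 9349 to 14120 counts per library it also had the most counts of the 42 genes. Its rise was 1.41-fold (log2 change 0.50 ± 0.07 SE, 95% interval 0.34 to 0.65, adjusted p = 0.00026 by edgeR). Mmp17, a lipid-anchored member, rose from 2.56 and 2.57 to 3.29 and 3.76 FPKM (log2 change 0.42 ± 0.10 SE, adjusted p = 0.0073 by edgeR), and lost the call without shRybp replicate 2 (adjusted p = 0.108).

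Mmp14, the main activator of pro-MMP2 at the cell surface, had 4.40 and 4.54 FPKM in control and 3.35 and 4.48 FPKM in shRybp. The shRybp libraries disagreed, one lying below the controls and the other between them (log2 change -0.22, 95% interval -0.48 to 0.04, adjusted p = 0.17 by edgeR), and without shRybp replicate 2 the value was -0.45 (adjusted p = 0.0145), while without shRybp replicate 1 it was -0.03 (0.873). Mmp16, another membrane-type protease, overlapped between groups at 2.35 to 2.75 FPKM (95% interval -0.31 to 0.14). Mmp19, a secreted member, was at 1.14 and 1.21 FPKM in control and 1.42 and 1.31 FPKM in shRybp and did not pass (edgeR adjusted p = 0.50).

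Of the 4 Timp genes, which encode the inhibitors, 2 fell and 0 rose in the edgeR fit (also 2 and 0 at an unadjusted p under 0.05 and in DESeq2), against 16.7% of all tested genes that fell. Timp3, the matrix-bound inhibitor with the broadest range of targets (ENSMUSG00000020044, mm10 chromosome 10, 86300372 to 86349506, plus strand), dropped from 21.5 and 20.8 to 9.49 and 9.43 FPKM. The shRybp libraries were nearly equal and far below the controls, at 43.6% of the control level (log2 change -1.20 ± 0.06 SE, 95% interval -1.33 to -1.06, adjusted p = 1.3e-07 by edgeR). Timp4, the most abundant Timp gene, fell from 40.3 and 38.7 to 32.3 and 30.3 FPKM, to 77.2% of control (log2 change -0.37 ± 0.06 SE, adjusted p = 0.00068 by edgeR). Both falls passed in all 11 alternatives. Astrocyte markers were lower in the same libraries, with 8 of 8 in the table, 7 of 7 tested falling and a summed level of 370 and 385 FPKM in control and 204 and 218 FPKM in shRybp, and their part in the falls of Timp3 and Timp4 was not tested. Among progenitor markers 4 fell and 2 rose, and among oligodendrocyte lineage markers 3 fell and 0 rose. In RNA from whole cultures, fewer cells of a type and less RNA per cell cannot be told apart.

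Timp2, which both inhibits MMPs and takes part in the activation of pro-MMP2, had 23.9 and 23.8 FPKM in control and 24.3 and 26.5 FPKM in shRybp (log2 change 0.05, 95% interval -0.09 to 0.20, adjusted p = 0.58 by edgeR). Timp1, an inducible secreted inhibitor, had 7.22 and 8.67 FPKM in control and 10.2 and 10.1 FPKM in shRybp, from 113 to 147 counts. Its groups were apart, but the edgeR test was not passed (log2 fold change 0.32, 95% interval -0.02 to 0.65, adjusted p = 0.13), whereas limma on log2(FPKM + 1) gave an adjusted p of 0.043.

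Timp1, Timp3 and Timp4 lie inside the synapsin genes Syn1, Syn3 and Syn2, on the opposite strand. Whether counting used strand is unknown from the labels, so reads of shared exonic bases cannot be told apart. Timp3 shares 21.3% of its exonic bases with Syn3, which had only 35 to 67 counts per library against 1111 to 3087 for Timp3. Timp4 shares 1.53% with Syn2, which did not pass the test (log2 change -0.14, adjusted p = 0.26 by edgeR). In all, 9 of the 28 tested genes share exonic bases with another annotated gene on the opposite strand, among them Adam17 (4.35%, with Iah1), Adamts7 (1.94%, with Tbc1d2b) and Mmp19 (22.3%, with Tmem198b). Iah1, Tbc1d2b and Tmem198b did not pass the test (edgeR adjusted p = 0.99, 0.11 and 0.21). Tmem198b had 753 to 978 counts per library against 68 to 76 for Mmp19, and the part of Tmem198b reads in the Mmp19 count was not tested. Adam19 shares 8.25% and 6.75% of its exonic bases with the antisense genes Gm16033 and Gm16034, which have no row in the table.

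Summed over each family, protease transcripts were higher and inhibitor transcripts lower in both shRybp libraries. The 16 Adamts genes summed to 37.5 and 40.2 FPKM in control and 53.6 and 57.5 FPKM in shRybp. The 8 Mmp genes summed to 112 and 121 FPKM in control and 154 and 173 FPKM in shRybp, of which Mmp15 made up 88.6% to 92.1%. The higher Mmp sum came mostly from Mmp15, at 99.3 and 108 FPKM in control and 141 and 159 FPKM in shRybp. The 4 Timp genes summed to 93.0 and 91.9 FPKM in control and 76.2 and 76.3 FPKM in shRybp. The lower Timp sum came from Timp3 and Timp4, while Timp1 and Timp2 were higher in both shRybp libraries. The 11 Adam genes summed to 174 and 177 FPKM in control and 191 and 196 FPKM in shRybp. Of the 8 tested, 2 (Adam10 and Adam19) had a positive log2 fold change and 6 a negative one. The composition of the Adam sum differed, since Adam9 took 37.8% and 38.0% of it in control and 30.5% and 30.2% in shRybp. No test was made on these sums.

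**Figure D3:**
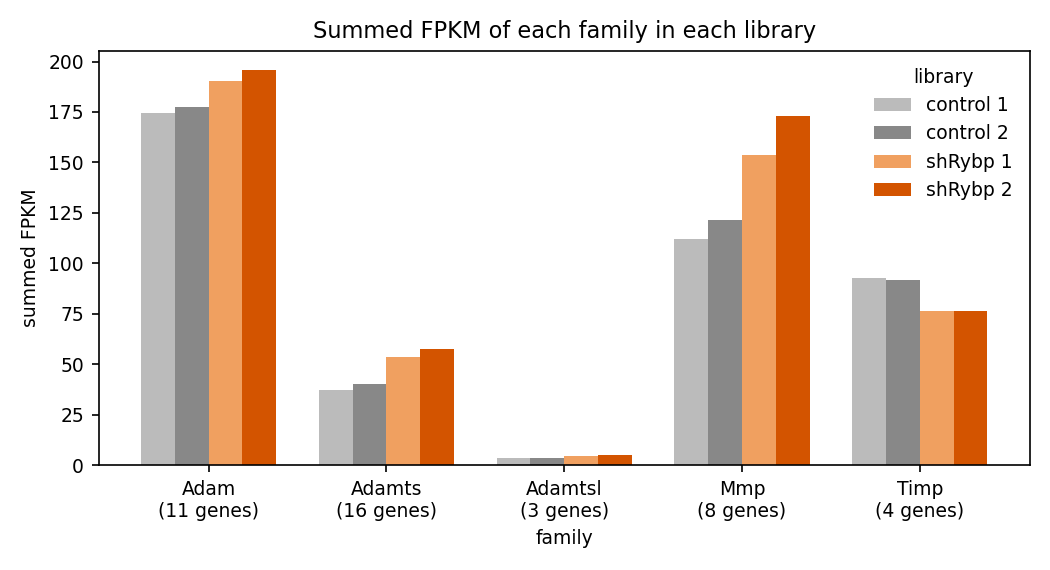
Summed FPKM of each family in each library, with control libraries in grey and shRybp libraries in orange. The Adamts and Mmp bars are taller in both shRybp libraries and the Timp bars shorter.

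The 14 genes under the minimum had means of at most 0.662 FPKM, and are described by the edgeR fit of the whole table of 13881 genes, in which 31.4% of genes passed. Of the 14, 2 passed there, both Adamts genes that rose. Adamts8, which lies next to Adamts15 on chromosome 9, had 36, 27, 50 and 62 counts in control 1, control 2, shRybp 1 and shRybp 2 (log2 change 0.92 ± 0.25 SE, adjusted p = 0.011 by edgeR). Adamts19 had 50, 48, 69 and 104 counts (log2 change 0.90 ± 0.22 SE, adjusted p = 0.0051 by edgeR), with shRybp 2 the highest by some margin. These counts are small, and the SEs are accordingly wide. The other 12 did not pass, and they were Adam1a, Adam8, Adam23, Adamts15, Adamts16, Adamts17, Adamts20, Adamtsl1, Adamtsl5, Mmp11, Mmp24 and Mmp28. The nearest to the threshold were Mmp24, a membrane-type protease of neural cells (log2 change -0.65, adjusted p = 0.059 by edgeR), and Adamts17 (0.67, edgeR adjusted p = 0.074).

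**Figure D4:**
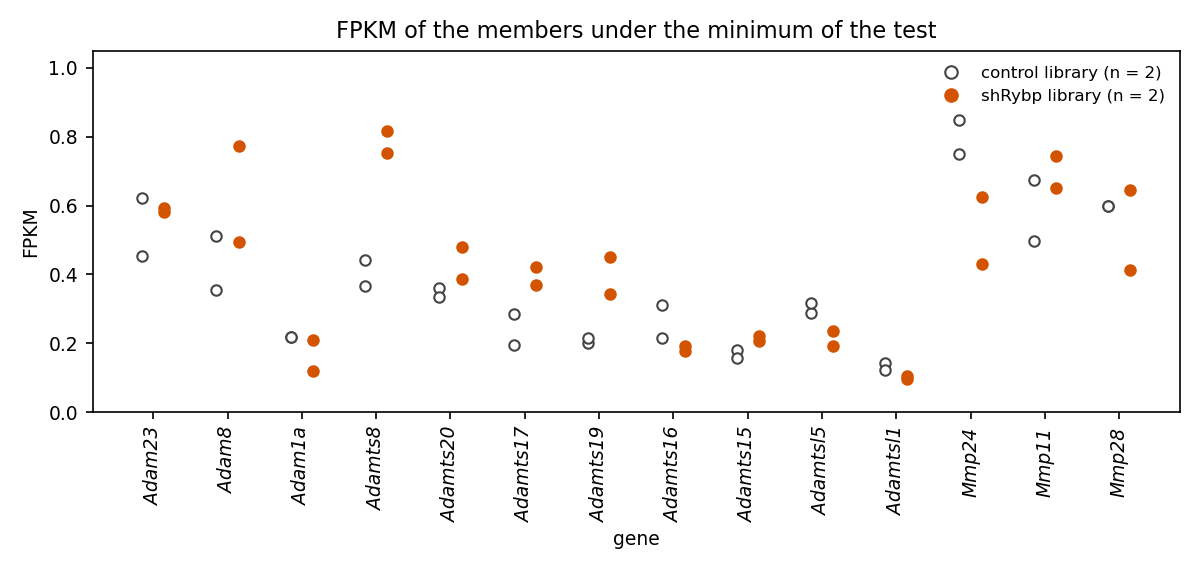
FPKM of the 14 genes under the minimum in each library, on a linear axis from 0; open points are control and filled points shRybp. For Adamts8 and Adamts19, and for Adamts15, Adamts17 and Adamts20, which did not pass, both filled points lie above both open points. They lie below both for Adam1a, Adamts16, Adamtsl1, Adamtsl5 and Mmp24, which did not pass either.

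The promoters of the genes with the greatest rise and fall are given because they moved in opposite directions. Windows of 300 bases (RefSeq, GRCm38.p6, 250 bases before to 50 after a gene's start) were found for 26 of the 42 genes, in 28 windows. They were searched on both strands for TGGGAA, the core site of the Notch effector RBPJ, and for TGANTCA, the AP-1 site known from MMP promoters, and the matches of these motifs did not overlap in the printed windows. Adam19 has 3 windows in the table, of which 2 hold neither motif. The printed Adam19 window at chr11:46055734-46056033 (plus strand) holds 1 TGANTCA match, in capitals, as do 7.81% of the 32851 windows of all genes, while the Timp3 window at chr10:86300162-86300461 (plus strand) holds neither motif.
Adam19: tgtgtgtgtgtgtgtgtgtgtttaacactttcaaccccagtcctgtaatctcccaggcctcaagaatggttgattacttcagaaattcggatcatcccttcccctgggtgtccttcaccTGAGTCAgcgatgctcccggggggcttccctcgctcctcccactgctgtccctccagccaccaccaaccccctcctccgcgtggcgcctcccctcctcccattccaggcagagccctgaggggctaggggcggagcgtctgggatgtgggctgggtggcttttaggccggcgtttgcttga
Timp3: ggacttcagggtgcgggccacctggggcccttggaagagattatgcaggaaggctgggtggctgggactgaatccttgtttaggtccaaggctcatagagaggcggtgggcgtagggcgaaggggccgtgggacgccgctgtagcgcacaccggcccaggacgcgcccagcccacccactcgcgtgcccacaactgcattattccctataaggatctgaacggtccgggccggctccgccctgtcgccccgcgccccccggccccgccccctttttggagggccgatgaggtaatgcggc
Of the 28 windows 8 held TGGGAA (28.6%, against 25.6% of all windows) and 1 held TGANTCA. A match is a run of letters in the window and says nothing of binding in these cells.

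Genes listed as acting with these enzymes changed in both directions, with Cst3 among them although its product does not inhibit them. Of 69 listed, 38 were tested, and 9 rose and 12 fell (median log2 fold change -0.09), where the background was 16.3% of all tested genes that rose and 16.7% that fell. The counts for single lists below rest on 2 to 9 tested genes each. Without shRybp replicate 2, and also in DESeq2, 5 rose. Among tetraspanins that escort ADAM10, Tspan14 rose (log2 fold change 0.23) and Tspan5 fell (-0.26) of 5 tested, and neither passed without control replicate 2 (adjusted p = 0.090 and 0.054 by edgeR). Nor did Tspan14 pass without shRybp replicate 2 (0.144) or in DESeq2 (0.060), or Tspan5 without shRybp replicate 1 (0.063) or in limma (0.056). Rhbdf1, an inactive rhomboid that carries ADAM17 to the cell surface, rose from 5.75 ± 0.52 to 9.0 ± 1.33 FPKM (SD, n = 2; log2 change 0.61 ± 0.11 SE, adjusted p = 0.00094 by edgeR). Of 3 proprotein convertases tested, which remove the inhibitory prodomain of many of these proteases, Pcsk6 fell (log2 change -0.79, adjusted p = 0.00054 by edgeR), and Furin did not pass (0.24, edgeR adjusted p = 0.069). Under the minimum, in the edgeR fit of the whole table, Pcsk5 rose (log2 change 0.69, adjusted p = 0.0033). Pcsk4 did not pass there (-0.42, edgeR adjusted p = 0.52).

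Of 4 genes tested in the list of other inhibitors and clearance genes, 2 fell and 0 rose (3 and 0 at an unadjusted p under 0.05 in edgeR, 2 and 0 in DESeq2). The 2 were Lrp1 and Cst3, neither of them a metalloprotease inhibitor gene. Lrp1, the endocytic receptor that takes up MMPs, ADAMTSs and TIMPs, fell from 18.5 ± 2.34 to 13.7 ± 1.33 FPKM (SD, n = 2; log2 change -0.46 ± 0.09 SE, adjusted p = 0.0012 by edgeR). Cst3, whose product cystatin C inhibits cysteine proteases and not metalloproteases, fell by 1.07 on the log2 scale. The membrane inhibitor gene Reck (-0.27) and A2m (-0.19) did not pass (edgeR adjusted p = 0.19 and 0.069). Of 2 plasminogen system genes tested, Plat, tissue plasminogen activator, fell from 77.1 ± 1.57 to 60.6 ± 1.91 FPKM (SD, n = 2). Its log2 change was -0.38 ± 0.06 SE (adjusted p = 0.00048 by edgeR). Serpine2 did not pass (-0.09, edgeR adjusted p = 0.33). Among genes of this list under the minimum, Plaur rose in the edgeR fit of the whole table (log2 change 1.41, adjusted p = 0.0018). Serpini1 fell there (-0.62, edgeR adjusted p = 0.049), and Plau did not pass (0.49, edgeR adjusted p = 0.21).

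Substrates of these proteases changed in both directions. Of 9 lectican and matrix substrates tested, 5 fell and 1 rose. The neural proteoglycan gene Ncan fell from 421 ± 28.8 to 216 ± 4.37 FPKM (SD, n = 2; 2.0-fold lower, adjusted p = 1.1e-06 by edgeR), and Bcan (-0.48), Tnr (-1.02), Reln (-0.82) and the basement membrane gene Nid1 (-0.52) fell too. Nid2 rose (0.84), while Vcan, a substrate of ADAMTS1 and ADAMTS9, did not pass (-0.12, edgeR adjusted p = 0.17). Of 6 microfibril genes tested, 3 rose and 0 fell (4 and 0 at an unadjusted p under 0.05 in edgeR, 3 and 0 in DESeq2). Fbn1, fibrillin-1, rose from 4.36 ± 0.0042 to 10.1 ± 0.453 FPKM (SD, n = 2; log2 change 1.17 ± 0.07 SE, adjusted p = 2.5e-07 by edgeR), with Ltbp1 (1.14) and Fbn2 (0.85).

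Of the shed EGF family ligands, 3 were tested. Tgfa fell from 5.28 ± 0.317 to 2.98 ± 0.0825 FPKM (SD, n = 2; log2 change -0.86 ± 0.09 SE, adjusted p = 2.0e-05 by edgeR), and Areg rose (0.95, edgeR adjusted p = 0.012). Areg lost the call in DESeq2 (adjusted p = 0.098) and without control replicate 1 (edgeR adjusted p = 0.050) or shRybp replicate 2 (0.108). Hbegf did not pass (-0.25, edgeR adjusted p = 0.052). Pcolce, an enhancer of procollagen processing, rose (0.81), and of the LGI ligand genes Lgi2 rose (0.55) and Lgi3 fell (-0.46). These 3 genes lost the call in DESeq2 (adjusted p = 0.067, 0.061 and 0.155) and without shRybp replicate 2 (edgeR adjusted p = 0.128, 0.067 and 0.070). Lgi3 lost it too without control replicate 2 (log2 change -0.27) and without shRybp replicate 1. It also lost the call in both limma fits and with library totals without TMM, and kept it in 4 of 11 alternatives.

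**Figure D5:**
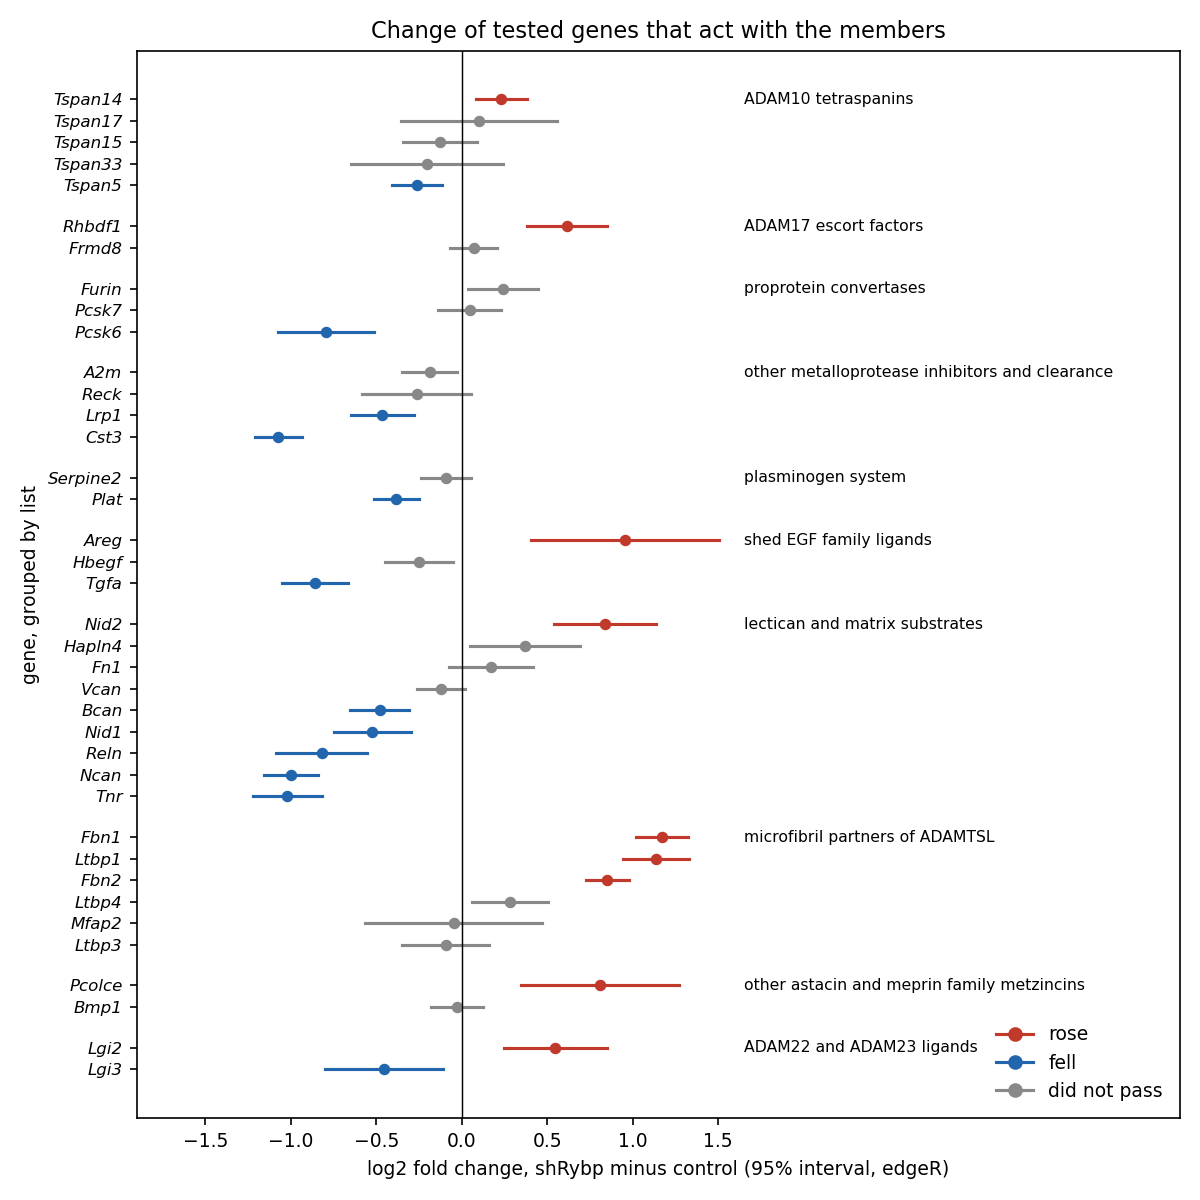
Log2 fold change of shRybp against control with 95% intervals (edgeR) for the 38 tested genes listed as acting with the metalloproteases, grouped by list and coloured by whether they rose, fell or did not pass. The microfibril genes Fbn1, Ltbp1 and Fbn2 lie right of 0, and 5 of the 9 matrix substrates lie left of it with intervals clear of 0.

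Of the astrocyte markers 7 of 7 tested fell and 0 rose (also 7 and 0 at an unadjusted p under 0.05 in edgeR, and 6 and 0 in DESeq2). They fell in the same libraries as Adam9, the proteoglycan genes Ncan and Bcan, Timp3 and Timp4, and so did markers of other lists. Of the progenitor markers 2 rose (Nes and Vim) and 4 fell (Fabp7, Slc1a3, Sox2 and Msi1) of 7 tested. Oligodendrocyte lineage markers summed to 801 and 827 FPKM in control and 737 and 774 FPKM in shRybp (3 of 8 fell and 0 rose). Olig1 and Olig2 made up most of that sum and did not pass. Gpr17, Sox10 and Pdgfra fell to 17.6%, 25.2% and 41.7% of control. Neuron markers summed to 231 and 207 FPKM in control and 330 and 314 FPKM in shRybp (2 rose and 2 fell of 6 tested). Gap43 alone carried the higher neuron sum, and without it the sum was 72.1 and 71.9 FPKM in control and 70.8 and 64.1 FPKM in shRybp. Markers of pericytes and smooth muscle summed to 2.18 and 2.22 FPKM in control and 3.36 and 3.07 FPKM in shRybp, with Pdgfrb, Kcnj8, Abcc9, Myh11 and Des without a row in the table. The only tested pericyte and smooth muscle marker, Acta2, rose (log2 change 0.69, adjusted p = 0.019 by edgeR), as did most of the tested Adamts genes. Acta2 carried the higher sum of its list. Without Acta2 the sum was 0.660 and 0.825 FPKM in control and 0.761 and 0.827 FPKM in shRybp. Markers of meningeal fibroblasts summed to 15.4 and 16.7 FPKM in control and 8.50 and 8.48 FPKM in shRybp. That sum came mostly from Pdgfra, which oligodendrocyte precursors also express, and Col1a1, Col1a2, Col3a1, Dcn, Lum and Aldh1a2 had no row. The other meningeal marker in the table, Foxc1, rose (log2 change 0.47, adjusted p = 0.021 by edgeR). Acta2 lost the call in DESeq2 and without control replicate 2 or shRybp replicate 1, and Foxc1 in DESeq2, in limma and without control replicate 2 or shRybp replicate 2. The part of these marker changes in the results above was not tested.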

How the data were processed

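RNA of 2 control and 2 shRybp libraries was analysed from 1 table. The authors deposited whole-number read counts per gene, not normalized, and FPKM values, per the file headers. The FPKM values equal the counts scaled by gene length and by 1 factor per library. Per the submitters' processing notes the reads were placed on mm10, with aligner and counter not given in the sources used here. No gene has fewer than 40 counts over the 4 libraries.

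Genes whose mean FPKM over the libraries reached 1 (12062) were fitted by their counts with edgeR 4.0.16 in R 4.3.3 (TMM scaling, quasi-likelihood, two-sided test, Benjamini-Hochberg adjustment over all tested genes, threshold 0.05). The SE was taken from the size of the log2 change over the root of its F value. Totals of 14355308 to 17598873 counts set the precision. Libraries of a group differed beyond counting noise (chi-square per degree of freedom 5.18 and 4.37) and were kept apart. Alternatives were DESeq2 1.42.0, library totals, limma 3.58.1 on log2(FPKM + 1) and log2(FPKM + 0.1), other filters, a replicate block and leaving out each library.

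The genes, lists and alternatives were chosen with earlier results of these data known. The naming rule took every gene that passed, with the highest and lowest of each family. Genes that did not pass were otherwise named after their values were seen, so that all 42 are accounted for, as were those of the partner lists. Strand and positions came from GENCODE M21, in which all 42 genes matched in start and end. Coding sequences were translated with Biopython 1.88.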

Additional observations from a re-analysis of the deposited data

How the results depend on the processing

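Of the 18 genes of these families that passed, 11 passed in every alternative fitted and 7 lost the call in at least 1, and the cause was not tested. The number that rose was 9 to 13 over the other alternatives at the same filter and 15 with no filter, and the number that fell was 3 with limma on log2(FPKM + 1) and 3 with limma on log2(FPKM + 0.1). Leaving out 1 library gave 9 to 12 that rose and 3 to 6 that fell (3 without shRybp replicate 1), 5 to 7 Adamts genes that rose (5 without shRybp replicate 2), 1296 to 1640 genes of the table that rose and 5 to 11 partner genes that rose (5 without shRybp replicate 2). DESeq2 gave 5 partner genes that rose.

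Signs turned for genes that did not pass. They were Adam12 under library totals without TMM (0.019), limma on log2(FPKM + 1) (0.019) and log2(FPKM + 0.1) (0.020), and on leaving out 1 library Adam12 (-0.062 to 0.025), Adam15 (-0.24 to 0.076), Mmp16 (-0.20 to 0.031), Adamts3 (-0.17 to 0.16) and Timp2 (-0.0069 to 0.11). With the replicate number as a block, 13 genes of the families rose and 7 fell, 8 Adamts genes rose, and 2676 genes of the table rose and 2652 fell. Whether same-numbered libraries share a culture or preparation is not stated in the labels. The correlation of deviations between same-numbered libraries was 0.10, with 2 libraries a group. Adam11 and Adamts3, near 1 FPKM, had 65 to 139 counts per library, which limits their precision (SE of 0.20 and 0.16).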
